A study of Mus musculus with 16 samples.

Results

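The genes described here are 6 genes of naive lymphocyte homing and quiescence, Ccr7, S1pr1, Klf2, Lef1, Tcf7 and Satb1, read on every probe set that the platform annotation maps to one of them. A probe set is a group of array probes whose signals are summarised into 1 value. The rule found 7 probe sets of 5 genes among 12422 tested, with 1 probe set each for Ccr7, Klf2 and Satb1 and 2 each for S1pr1 and Lef1. The annotation pairs 0 probe sets with Tcf7, so that this gene, which encodes TCF-1, has no value here.

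RNA was measured in 6 lymphocyte populations sorted from mice, and each of the 3 innate-like populations has an adaptive counterpart. NKT cells (CD3+CD4+NK1.1+, n = 3) and CD4T cells, conventional CD4 T cells without NK1.1 (n = 3), came from the spleen of wild type C57BL/6 mice. CD8aaT cells (TCRb+CD8a+CD8b-, n = 3) and CD8abT cells (TCRb+CD8a+CD8b+, n = 3) came from RTOC, a culture named in the labels by this abbreviation, and had been selected with the agonist Smcy, at 10 mM as the labels write it for CD8aaT and 100 nM for CD8abT. Dose and lineage are therefore the same factor in that pair, no strain is labelled for it, and whether the millimolar unit is a slip is not known. B1 cells (IgM(hi)IgD(int)CD11b+, n = 2) came from the peritoneum and B2 cells (IgM(int)IgD(hi)CD11b-, n = 2) from the spleen of wild type C57BL/6 mice, so that tissue and lineage cannot be told apart between them. Sorts held about 50000 cells for RTOC samples and about 100000 for all others. The labels state no ages and do not say whether animals were pooled.

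Naive lymphocytes circulate between blood and lymphoid organs. CCR7, a chemokine receptor, leads them into lymph nodes toward its ligands CCL19 and CCL21, and S1PR1, a receptor for sphingosine 1-phosphate, lets them leave again. KLF2 is a zinc finger transcription factor that keeps T cells quiescent and is known to drive transcription of S1pr1. LEF1 and TCF-1 are HMG-box factors that act with beta-catenin in T cell development and mark naive T cells. SATB1 organises chromatin and is abundant in thymocytes.

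Promoter windows are shown for the 3 transcription factors among the members that were lower in 1 of the pairs, Klf2 and Lef1 in NKT cells and Satb1 in B1 cells. Each window runs from 250 bases before to 50 after a gene start of RefSeq (assembly GRCm38.p6). The table holds 12 windows for 4 of the 6 members, Klf2, Lef1, Tcf7 and Satb1, and none was matched for Ccr7 and S1pr1. For Lef1, with 4 windows, and Satb1, with 5, the most upstream is printed. They lie at chr8:72318812-72319111 (plus strand, Klf2), chr3:131110047-131110346 (plus strand, Lef1) and chr17:51833241-51833540 (minus strand, Satb1). Capitals mark matches on either strand to CACCC, a core that KLF factors bind. Printed 5′ to 3′ they read:
Klf2: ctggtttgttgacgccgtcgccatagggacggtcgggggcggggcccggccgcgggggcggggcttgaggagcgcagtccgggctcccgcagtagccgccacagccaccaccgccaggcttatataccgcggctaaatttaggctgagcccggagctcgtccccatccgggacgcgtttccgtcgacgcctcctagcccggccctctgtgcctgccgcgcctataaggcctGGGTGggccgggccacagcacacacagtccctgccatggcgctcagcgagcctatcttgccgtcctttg
Lef1: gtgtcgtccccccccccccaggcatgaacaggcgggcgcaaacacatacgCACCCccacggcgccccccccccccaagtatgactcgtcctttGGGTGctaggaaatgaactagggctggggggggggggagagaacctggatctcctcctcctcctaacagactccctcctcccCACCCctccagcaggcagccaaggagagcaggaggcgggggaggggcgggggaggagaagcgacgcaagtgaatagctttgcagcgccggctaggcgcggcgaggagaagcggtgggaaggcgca
Satb1: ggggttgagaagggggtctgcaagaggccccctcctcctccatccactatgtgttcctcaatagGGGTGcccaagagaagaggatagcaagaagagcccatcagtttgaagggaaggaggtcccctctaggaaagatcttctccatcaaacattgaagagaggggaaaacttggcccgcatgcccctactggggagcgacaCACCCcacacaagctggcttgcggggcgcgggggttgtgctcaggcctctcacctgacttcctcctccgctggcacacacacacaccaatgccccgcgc

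CACCC or its reverse complement occurred 1 time in the Klf2 window, at position -19 on the minus strand, 3 times in the Lef1 window and 2 times in the Satb1 window. It is a short motif, and 57.5% of 32851 promoter windows of this length hold it. CTTTGAT, a core of TCF and LEF sites, and GTAAACA, a core of FOXO sites, were found 0 times in these 3 windows, and 3.73% and 3.65% of all windows hold them. The matches do not overlap. Of the member windows not printed, Satb1 window 2 in the order of the table held no CACCC, the other Lef1 windows held 1 to 3, and a Tcf7 window held GTAAACA. The matches describe letters in these windows only.

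All values are intensities deposited by the authors, and a difference is the innate-like group less its adaptive counterpart in log2 units, ± the SE of the fit. A probe set was called when its p-value from limma, adjusted by Benjamini-Hochberg over 12422 probe sets, was under 0.05. Array medians lay between 49.6 and 54.1 in the NKT and CD4T arrays, 30.4 and 31.9 in the CD8aaT and CD8abT arrays, and 69.2 and 76.1 in the B1 and B2 arrays. Levels are therefore compared within a pair, and across pairs only as the percentile of a probe set among all tested probe sets of its own array. The defining genes of the gates followed the labels in part. In CD8aaT cells Cd8b1 fell by 5.51 on the log2 scale, and in B1 cells Ighd fell by 1.25, both called, while Itgam, which encodes the CD11b of the B1 gate, differed by 0.01 ± 0.17 between B1 and B2 (adjusted p = 1). Cd8a, part of both RTOC gates, was also called lower in CD8aaT cells (-0.80 ± 0.135, adjusted p = 0.03). Ighm, of the IgM gates, was 0.545 ± 0.347 in B1 cells and not called. For Klrb1c, the NK1.1 gene, no value was read, so that the NK1.1 gate of the NKT pair was not checked. In a sorted population, fewer cells that express a gene and less of its RNA per cell cannot be told apart.

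In NKT cells Ccr7, Klf2, Lef1 and S1pr1 were lower than in CD4T cells, each on 1 probe set, and Satb1 was not called. Of the 7 probe sets 4 were called lower and 0 higher, where 0.539% of all probe sets were called lower and 1.09% higher. With the replicate number as a block, a fit in which arrays of 1 number are compared with each other, 5 were called lower, against 1.72% of all probe sets. All 7 differences lay below 0, with a median of -1.28 against -0.03 over all probe sets. On 6 of the 7, every NKT array was below every CD4T array, which held for 5.02% of all probe sets.

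Ccr7 had the largest of the 7 differences between NKT and CD4T cells. Its intensities were 31.3, 25.5 and 21.0 on the 3 NKT arrays, against 88.1, 105.5 and 140.1 on the CD4T arrays. The dimmest CD4T array was well above the brightest NKT array. The difference was -2.09 ± 0.24 (4.27-fold lower in NKT cells, adjusted p = 0.00016). On its array Ccr7 stood at a mean percentile of 31.7 in NKT cells and 69.1 in CD4T cells.

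Klf2, the quiescence factor, had intensities of 135.5, 105.6 and 110.7 in NKT cells, against 279.5, 368.7 and 376.4 in CD4T cells. The groups did not overlap, and replicate 1 was the highest NKT array and the lowest CD4T array. The difference was -1.54 ± 0.25 (2.90-fold lower, adjusted p = 0.0034). Between arrays of the same replicate number it was -1.05, -1.80 and -1.77. Klf2 stood at a mean percentile of 71.0 in NKT cells, against 90.9 in CD4T cells.

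S1pr1 has a pair of probe sets whose calls differed, named here by the suffix of their identifiers. On the _f_at set, whose suffix marks probes that a family of sequences can share, intensities were 19.0, 16.9 and 19.9 in NKT cells, against 43.7 to 50.2 in CD4T cells. The arrays of a group lay close together and the difference of -1.36 ± 0.13 (2.57-fold lower, adjusted p = 2.4e-05) varied little over the replicate numbers, at -1.39, -1.37 and -1.34. On the dimmer S1pr1 _at set intensities were 12.1, 10.7 and 11.5 in NKT cells, against 15.02, 12.86 and 14.05 in CD4T cells. Those groups did not overlap either, but the difference of -0.29 ± 0.23 was not called (adjusted p = 1). That probe set stood between percentiles 5.25 and 14.6 on these 6 arrays. RMA can compress differences of dim sets, and whether it did so here was not tested.

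Lef1 also has a pair of probe sets. On its _at set intensities were 248.7, 238.3 and 252.7 in NKT cells, against 398.0, 367.6 and 368.3 in CD4T cells. The groups stood clearly apart with little spread, and the difference was -0.62 ± 0.13 (1.53-fold lower, adjusted p = 0.029). Its call was lost when any 1 of 8 arrays was left out, with adjusted p between 0.051 and 0.15 and a difference between -0.58 and -0.64 (the 3 arrays each of NKT and CD4T and the 2 B2 arrays), and also with quantile normalization over all arrays (0.061) and with trended, robust variance moderation (0.11). On its _g_at set intensities were 149.0, 101.1 and 91.1 in NKT cells, against 648.4, 166.3 and 182.6 in CD4T cells. That difference of -1.28 ± 0.57 was not called (adjusted p = 0.71). It was called with the block (adjusted p = 0.018). CD4T replicate 1 alone was far above the other CD4T arrays, and without it the difference was -0.65.

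Satb1 was among the brightest genes of both splenic T cell groups. Its intensities were 567.4, 909.2 and 797.5 in NKT cells, against 599.5, 948.1 and 1074 in CD4T cells. The groups overlapped, and replicate 1 was the lowest array of each. The difference was -0.19 ± 0.45 (adjusted p = 1), with a blocked SE of 0.13 and a blocked adjusted p = 0.63.

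**Figure D1:**
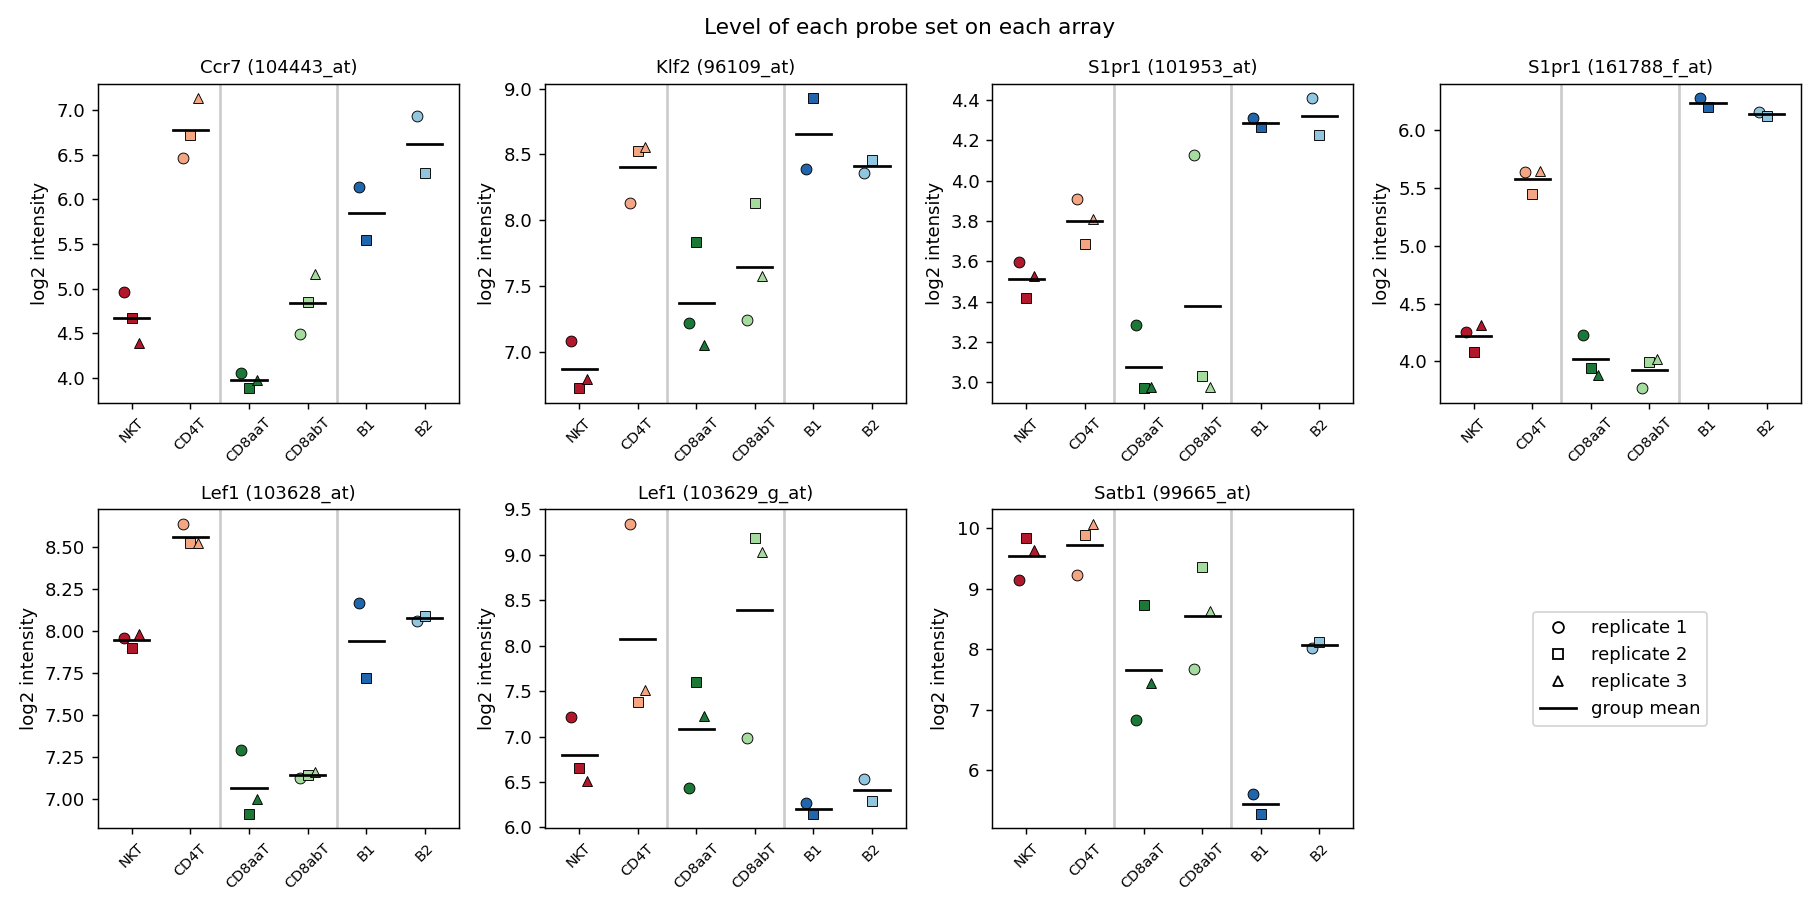
Log2 intensity of each probe set (vertical axis) in the 6 groups (horizontal axis), with 1 point per array, its shape giving the replicate number, and a bar at the group mean. For Ccr7, Klf2, S1pr1 _f_at and both Lef1 sets every NKT array lies below every CD4T array, and for Satb1 both B1 arrays lie far below both B2 arrays.

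In CD8aaT cells no probe set of the members was called by limma against CD8abT cells, while 0.0322% of all probe sets were called lower and 0.153% higher. At an unadjusted p under 0.05 the number was 2, Ccr7 and Lef1 _g_at. The share of all probe sets at that threshold is not given here, so this count has no background to be read against. In the blocked fit 3 passed, all lower, where that fit called 0.588% of all probe sets lower. The median difference of the 7 was -0.30, against -0.05 over all probe sets. Lists of cell markers had medians of -0.43 (double-positive thymocyte), -0.28 (T cell), -0.185 (erythroid and platelet), -0.16 (macrophage and monocyte) and 0.05 (B cell). The lists of pathway genes read below had medians between -0.08 and 0.01. The 3' to 5' ratio of the beta-actin controls was 5.15 to 5.80 on CD8aaT arrays and 6.57 to 11.55 on CD8abT arrays. That of the Gapdh controls was 7.37 to 20.89 and 9.47 to 30.39, against 5.11 to 8.48 on the arrays of the other pairs.

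Ccr7 had intensities of 16.7, 14.8 and 15.7 in CD8aaT cells, against 22.5, 28.9 and 35.8 in CD8abT cells. It was the 1 member probe set of 7 without overlap in this direction, which held for 5.51% of all probe sets. The difference was -0.86 ± 0.24 (1.82-fold, adjusted p = 0.35), and -0.86 ± 0.20 with the block (adjusted p = 0.049). The CD8aaT values spanned percentiles 28.9 to 30.2 of their arrays, and whether this low level compressed the difference was not tested.

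Satb1 varied more between replicate numbers than between the groups. Its intensities were 113.2, 422.3 and 174.6 in CD8aaT cells, against 203.1, 652.7 and 396.5 in CD8abT cells. Replicate 2 was the highest array and replicate 1 the lowest in both groups, and in each number the CD8aaT array was the lower one. The same-number differences were -0.84, -0.63 and -1.18. Without the block the difference of -0.89 ± 0.45 was not called (1.85-fold, adjusted p = 0.88), and with it the SE fell to 0.13 (adjusted p = 0.0092). Without the block, the difference was -0.46 without CD8aaT replicate 1, -1.41 without CD8aaT replicate 2, -1.33 without CD8abT replicate 1 and -0.48 without CD8abT replicate 2, none of them called.

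The Lef1 _at set had 156.5, 120.3 and 127.7 in CD8aaT cells, against 139.4, 141.2 and 143.0 in CD8abT cells. These values overlapped, with a difference of -0.08 ± 0.13 (adjusted p = 0.93, blocked adjusted p = 0.75). On the _g_at set the intensities were 86.6, 194.5 and 149.3 in CD8aaT cells, against 126.2, 580.3 and 521.6 in CD8abT cells. The difference there was -1.31 ± 0.57 (adjusted p = 0.8, and 0.031 with the block), so the pair of sets for this gene again gave different values. The _g_at difference was -2.02 without CD8abT replicate 1.

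Klf2 in the RTOC cells was 148.8, 228.3 and 132.5 in CD8aaT cells, against 151.1, 280.0 and 190.2 in CD8abT cells. The groups overlapped (-0.28 ± 0.25, adjusted p = 0.9, blocked adjusted p = 0.35). S1pr1 _f_at lay between 14.8 and 18.8 in CD8aaT cells and between 13.6 and 16.2 in CD8abT cells (0.09 ± 0.13, adjusted p = 0.92). On the S1pr1 _at set 1 CD8abT array, replicate 1, read 17.5 while the other 5 arrays of the pair lay between 7.84 and 9.73.

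The values of Lef1 _g_at moved with an array control. The 18S ribosomal 5' control read 1326 on CD4T replicate 1 and 857.5 and 715.6 on CD8abT replicates 2 and 3, the 3 arrays with the highest values of this Lef1 set (648.4, 580.3 and 521.6). On the CD8aaT arrays the control read 66.5, 272.9 and 249.1. With the log ratio of each array's beta-actin controls, 3' over 5', as a covariate, the CD8aaT difference of this set was -0.21 ± 0.43 (adjusted p = 1) and its NKT difference -1.03 ± 0.36 (adjusted p = 0.33). With the 18S signal as covariate, chosen after seeing this, the differences were -0.93 ± 0.40 and -1.18 ± 0.39. After centring each group on its mean, the log2 values of the _g_at set correlated with the 18S signal at 0.75 over 16 arrays and those of the _at set at 0.31, given as a description. B1 and B2 arrays with 776.5 and 877.0 on the control read only 76.9 and 92.3 on this set. NKT replicate 1, with 674.9 on the control, read 149.0.

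**Figure D2:**
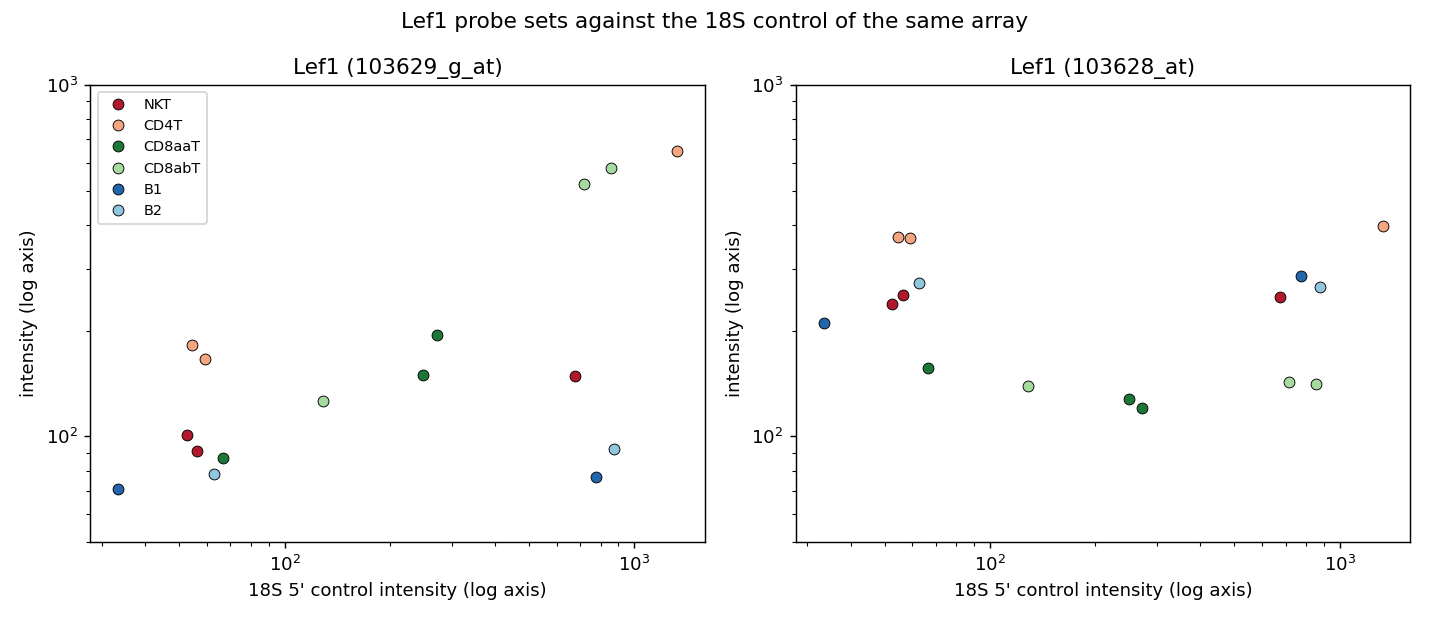
Intensity of the Lef1 probe sets _g_at (left) and _at (right) against the 18S 5' control intensity of the same array, both on log axes, with 1 point per array coloured by group. On the left the 3 highest points, 521.6 to 648.4, are CD4T and CD8abT arrays with a control of 715.6 or more, while on the right no such rise is seen. NKT replicate 1, with a control of 674.9, lies at 149.0 on the left.

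In B1 cells Satb1 was far below B2 cells, and the other members were not called. Of the 7 probe sets 1 was called lower, where 0.354% of all probe sets were called lower and 0.789% higher. Satb1 had intensities of 48.8 and 38.9 in B1 cells, against 259.0 and 278.0 in B2 cells. The arrays within a group were close and the groups far apart. The difference of -2.62 ± 0.55 (6.16-fold lower, adjusted p = 0.032) ranked 6 from the lowest over all 12422 probe sets. On its array the gene stood at a mean percentile of 35.0 in B1 cells and 83.7 in B2 cells.

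The SE of this Satb1 difference comes largely from other groups, since all 16 arrays share 1 estimate of the spread. The SD of Satb1 was 0.23 in B1 and 0.07 in B2 arrays, against 0.97 in CD8aaT and 0.85 in CD8abT arrays. With the 4 B cell arrays alone the SE was 0.17 (adjusted p = 0.016). The call was lost without either B1 array (adjusted p = 0.11 and 0.34, difference -2.79 and -2.46) or either B2 array (0.19 and 0.25, difference -2.67 and -2.57), which leaves 1 array in a group. It was also lost without CD4T replicate 2 or NKT replicate 3 (0.051 and 0.053), with median centring (0.05), with an offset of 32 before the log (0.12) and with replicate 1 dropped throughout (0.065).

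Markers of T cells were read beside the Satb1 values of the B cell pair. Cd3e read 95.9 on average (geometric mean) in B1 and 99.3 in B2 arrays, Cd3d 17.0 and 19.5, and Cd3g 30.4 and 30.8. Of 9 measured T cell defining markers 0 were called in B1 against B2 by limma, and 1, Cd2, was called higher in B1 cells with the block. Of the 9 differences 7 lay below 0, between -0.36 (Zap70) and -0.02. Cd3e, Cd3d and Zap70 had both B1 arrays below both B2 arrays, which held for 20.1% of all probe sets. The summed intensity of the list was 2517 to 2949 in B1 and 1288 to 1825 in B2 arrays, the higher sum on B1 arrays being mostly that of Cd2 (2142 in B1 and 901.2 in B2), which B cells express as well. Of 12 macrophage and monocyte markers 1 was called, Lyz2, higher in B1 cells (2.29 ± 0.43), and their summed intensity was 813.3 to 990.4 in B1 and 725.5 to 754.4 in B2 arrays. Of 9 B cell defining markers 7 lay below 0 in B1 cells, and 2 were called lower, the complement receptor gene Cr2 (-2.06 ± 0.19) and the inhibitory receptor gene Cd22 (-0.87 ± 0.17), and Pax5 was lower in the blocked fit (-0.71, blocked adjusted p = 0.0078). That list summed to 14590 to 15430 in B1 and 15110 to 16050 in B2 arrays. The part of these markers in the Satb1 difference was not tested.

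Ccr7 in B cells had intensities of 70.3 and 46.8 in B1 cells, against 122.4 and 78.4 in B2 cells. The groups did not overlap, which with 2 arrays each also held downward for 20.1% of all probe sets, and the difference of -0.77 ± 0.29 was not called (1.71-fold, adjusted p = 0.64). It was -0.48 without B1 replicate 2 and -0.45 without B2 replicate 1, but -1.07 without B1 replicate 1 and -1.095 without B2 replicate 2. Klf2 had 335.2 and 487.1 in B1 cells, against 328.9 and 351.2 in B2 cells (0.25 ± 0.30, adjusted p = 1). S1pr1 _f_at read 77.6 and 73.6 in B1 cells, against 71.6 and 69.7 in B2 cells. Both B1 values were above both B2 values, which held for 12.2% of all probe sets, with a difference of 0.10 ± 0.16 (adjusted p = 1). Lef1 _at had 286.7 and 210.7 in B1 cells, against 266.2 and 272.6 in B2 cells (-0.13 ± 0.16, adjusted p = 1). Lef1 _g_at had 76.85 and 70.98, against 92.29 and 78.15, without overlap (-0.20 ± 0.69, not called). S1pr1 _at had 19.87 and 19.21, against 21.25 and 18.74 (-0.03 ± 0.29, not called). B1 arrays thus lay below B2 arrays without overlap on 3 of the 7 sets and above on 1.

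**Figure D3:**
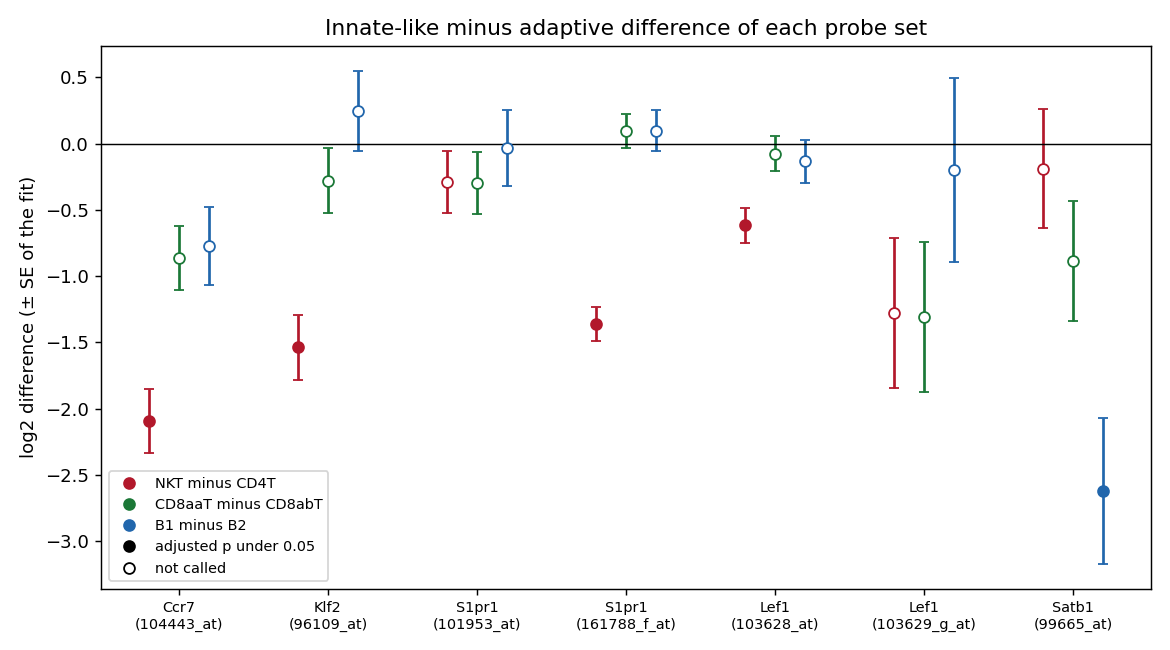
Innate-like minus adaptive log2 difference of each probe set (vertical axis, ± SE of the fit) for the 3 pairs, filled where the adjusted p is under 0.05. Ccr7, Klf2, S1pr1 _f_at and Lef1 _at are filled for NKT minus CD4T only, and Satb1 is filled for B1 minus B2 only, at -2.62.

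The members thus had different profiles over the pairs, and the differences between pairs were tested themselves. The fall of S1pr1 _f_at in the NKT pair differed from its change in the RTOC pair by -1.46 ± 0.18 (adjusted p = 9e-04) and from that in the B cell pair by -1.46 ± 0.20 (adjusted p = 0.0012). Both RTOC groups were dim on this set, at mean percentiles of 30.8 in CD8aaT and 26.5 in CD8abT cells, against 22.3 in NKT cells. The part of this low level in the contrast was not tested. For Klf2 the NKT pair differed from the B cell pair by -1.79 ± 0.39 (adjusted p = 0.035). That call was lost without any 1 of 7 arrays, namely replicates 2 and 3 of NKT and CD4T, both B2 arrays and B1 replicate 2, with adjusted p between 0.094 and 0.26, and with median centring (0.052) or replicate 1 dropped throughout (0.054). Against the RTOC pair the Klf2 difference was -1.26 ± 0.35 (adjusted p = 0.22, and 0.014 with the block). These 3 calls compare with 0.290% of all probe sets called lower between the NKT and RTOC pairs and 0.580% between the NKT and B cell pairs.

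Ccr7 was lower in all 3 innate-like groups by value and was called only in NKT cells. Its NKT difference lay -1.23 ± 0.34 from that of the RTOC pair (adjusted p = 0.21, and 0.047 with the block) and -1.32 ± 0.38 from that of the B cell pair (adjusted p = 0.16, and 0.042 with the block). For Satb1 the NKT difference lay above that of the B cell pair by 2.43 ± 0.71 (adjusted p = 0.17, and 7.7e-05 with the block), and the RTOC difference lay 1.74 ± 0.71 above it (adjusted p = 0.95, and 0.0014 with the block). The large SE of the Satb1 contrast between the NKT and B cell pairs again includes the spread of the RTOC arrays. With only the arrays of the NKT and B cell pairs it was 0.38 (adjusted p = 0.014). The block called 1.44% of all probe sets lower between the NKT and RTOC pairs, 1.88% lower and 2.74% higher between the NKT and B cell pairs, and 1.33% higher between the RTOC and B cell pairs. Its pairing of B1 with B2 arrays was not established. The comparisons that share a pair share its arrays.

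**Figure D4:**
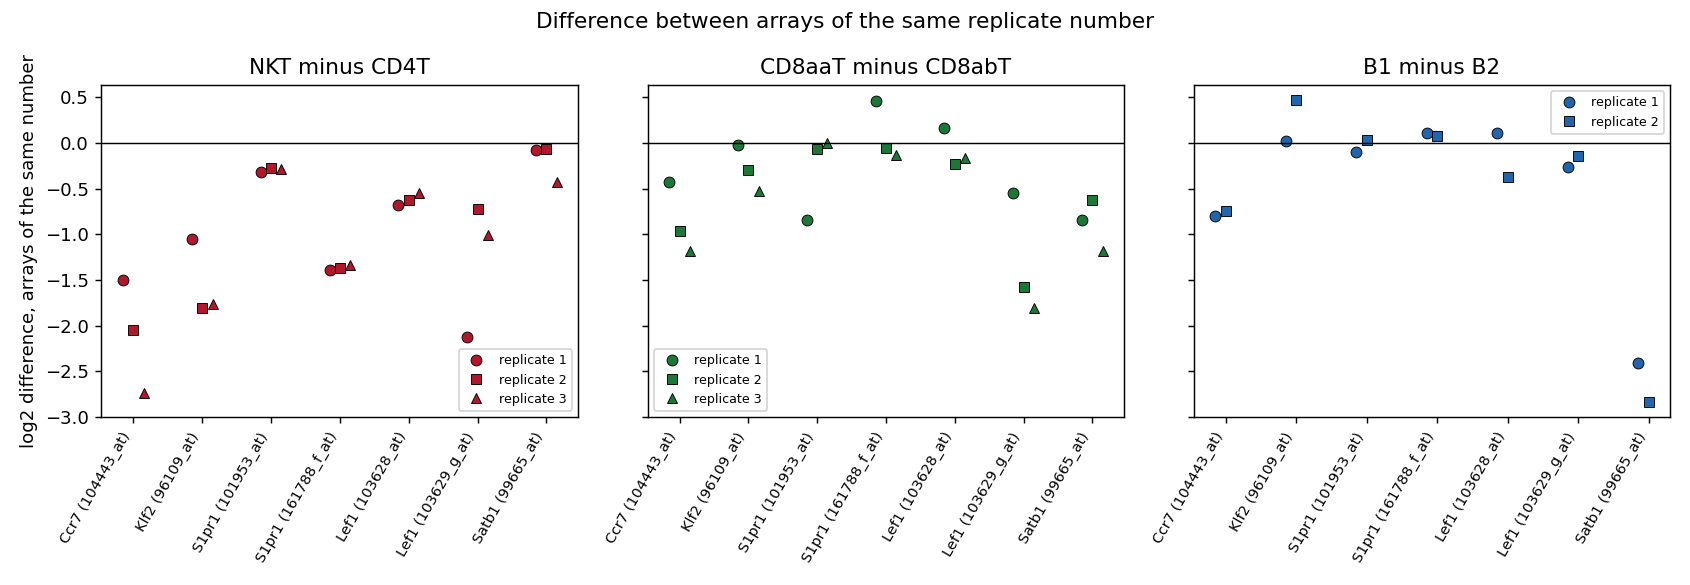
Log2 difference between the arrays of the same replicate number (vertical axis) for each probe set, with 1 panel per pair and 1 point per number. The 3 NKT points of S1pr1 _f_at lie within -1.39 to -1.34, and all 3 CD8aaT points of Satb1 lie between -1.18 and -0.63.

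As ranks on the array, which a common factor on all its values leaves unchanged, the members were ordered differently over the 6 groups. Other differences between pairs, such as the number of cells sorted or the processing, can move a rank, and whether they did was not tested. Ccr7 stood highest in CD4T cells (mean percentile 69.1), then in B2 (58.1), CD8abT (46.7), B1 (43.3), NKT (31.7) and CD8aaT cells (29.6). Ranges over arrays overlapped between each neighbouring pair of groups in that order except between B1 (38.9 to 47.7) and NKT (26.7 to 35.7). Klf2 lay between means of 87.6 and 90.9 in 5 groups, and NKT cells were below them all (68.4 to 74.8). Neighbours in the order CD4T, CD8abT, B1, B2 and CD8aaT overlapped, while B2 (87.4 to 88.1) lay below both CD4T (90.6 to 91.3) and CD8abT (88.4 to 93.5).

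S1pr1 _f_at stood near the middle of the array in B1 (51.2), B2 (48.2) and CD4T cells (47.9), and lower in CD8aaT (30.8), CD8abT (26.5) and NKT cells (22.3). The ranges of the first 3 groups did not meet those of the last 3. Lef1 _at was highest in CD4T cells (92.1, range 90.6 to 94.4), and the other 5 groups had means between 81.9 and 86.5 whose ranges reached at most 87.6. Among these the 2 B cell groups had the lowest means, 81.9 in B1 and 83.7 in B2. A rank does not show by itself that a gene is expressed. Satb1 ranked highest in CD4T (97.3) and NKT cells (96.5), then in CD8abT (95.1), CD8aaT (89.0), B2 (83.7) and B1 cells (35.0). B1 was clearly apart from the rest, its highest array at 36.8 against a lowest of 82.6 on any other array.

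**Figure D5:**
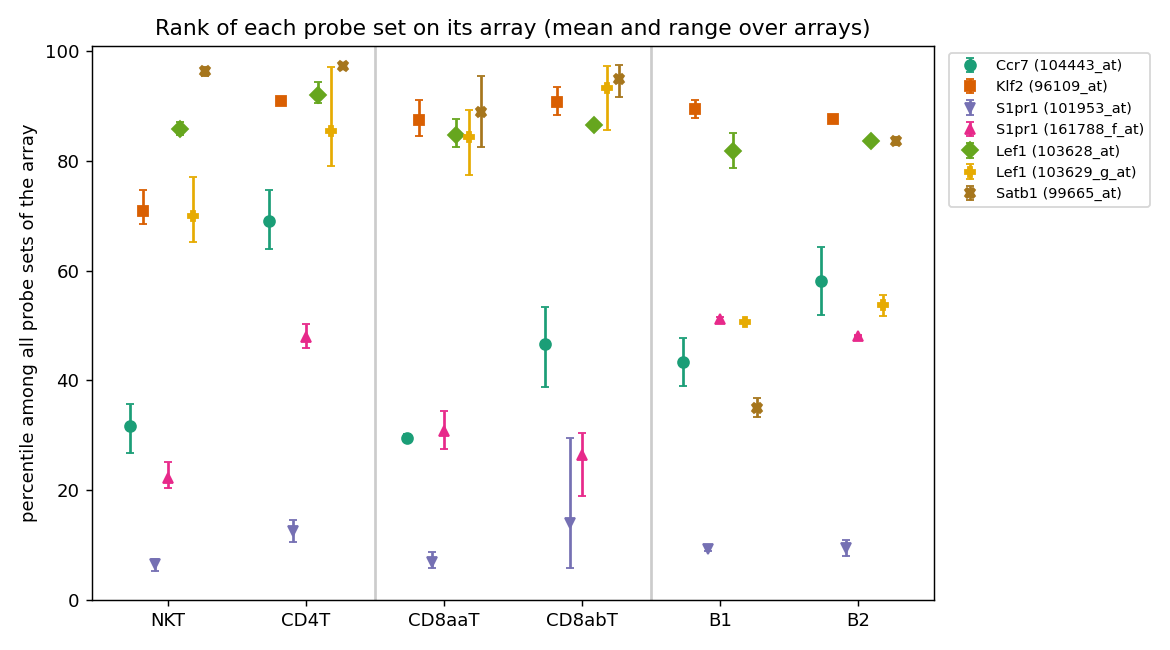
Percentile of each probe set among all tested probe sets of its array (vertical axis) in the 6 groups (horizontal axis), as the mean with the range over the arrays of a group. NKT cells stand apart for Klf2 (71.0) and B1 cells for Satb1 (35.0), while S1pr1 _f_at is near the middle of the array in CD4T, B1 and B2 cells only.

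Other genes of the same pathways were read from 4 lists, beside the shares of all probe sets called by limma (1.09% higher and 0.539% lower in NKT, 0.153% and 0.0322% in CD8aaT, 0.789% and 0.354% in B1 cells) and with the block (3.12% and 1.72%, 2.62% and 0.588%, 1.70% and 1.14%). No such share is given for an unadjusted p under 0.05, so list counts at that threshold have no background. Of 19 measured genes of lymphocyte homing and egress, 1 rose and 0 fell in NKT cells by limma, with a median difference of -0.16 against -0.03 over all probe sets. The one called was Itgal (0.71 ± 0.16), a chain of the integrin LFA-1. In CD8aaT cells 0 of the 19 were called by limma (1 at an unadjusted p under 0.05, and 0 with the block). In B1 cells 2 were higher, the integrin chain Itgb1 (2.79 ± 0.26, 6.93-fold) and the GTPase gene Rap1a (0.99 ± 0.22), which acts in integrin activation. Itga4, the integrin chain paired with beta 1 or beta 7, was called lower in NKT cells with the block alone (-1.38, blocked adjusted p = 0.018), as was Rasgrp2 (-0.47, 0.047), while Itgb2 was called higher (1.11, 0.00069).

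Of 21 quiescence and naive-state regulators 0 were called in NKT and 0 in CD8aaT cells by limma (4 and 5 at an unadjusted p under 0.05), and 1 was called higher in B1 cells, the antiproliferative gene Tob1 (0.94 ± 0.20). The block also called Klf4, of the KLF family, higher in B1 cells (0.93, blocked adjusted p = 0.042). With the block Foxp1, a forkhead factor that keeps T cells naive, was called lower in NKT cells (-0.76, blocked adjusted p = 0.0021), as were Klf13 (-0.48, blocked adjusted p = 0.011) and Slfn1 (-1.04, blocked adjusted p = 0.0073), while Foxo3 was called higher (0.92, blocked adjusted p = 0.00021). In CD8aaT cells the block called Klf13 lower (-0.72, blocked adjusted p = 0.004) and Il7r, the receptor for the survival cytokine IL-7, higher (1.71, blocked adjusted p = 0.011), together with Ets1 (1.08). Klf13 was thus the member of the KLF family on this list that was lower with the block in both T cell pairs.

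Among 19 TCF and LEF partners and Wnt pathway genes the co-repressor Tle1 fell in NKT cells (-0.70 ± 0.13, 1.62-fold lower, adjusted p = 0.0078), and 0 were called in CD8aaT cells by limma (2 at an unadjusted p under 0.05, and 0 with the block). In B1 cells Myc, a growth regulator, was higher (1.70 ± 0.27, 3.26-fold, adjusted p = 0.0044), and Tle1 was -0.68 ± 0.15 without being called (adjusted p = 0.053, and 0.025 with the block). Tle3, a related co-repressor, was called lower in NKT cells with the block (-0.71, blocked adjusted p = 0.011). The TCF family members other than Lef1 that were measured were not called in any pair, with Tcf7l1 at -0.14 ± 0.15 and Tcf7l2 at -0.04 ± 0.15 in NKT cells, values named after they were seen. Of 13 chromatin organisers and SATB1 partners 0 were called in any pair by limma (1 in NKT, 0 in CD8aaT and 0 in B1 cells at an unadjusted p under 0.05), and the block called 1 lower in NKT cells, the methyltransferase gene Ezh2 (-0.77, blocked adjusted p = 0.026).

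The genes whose pattern was most like a member's were found as the highest Pearson correlations over the 16 arrays, after centring each gene on its mean in each pair. They are a description of arrays that share a normalization. For Ccr7 they were Gm11346 (r = 0.92), the kinase gene Sgk1 (0.89) and Ppic (0.88). For Klf2 they were Rcan3 (0.93), of a family of calcineurin regulators, Lrrc8a (0.93) and its family member Klf7 (0.92), and the difference of Klf7 in NKT cells was -1.54. For S1pr1 _f_at they were Nsg2 (0.93), the integrin gene Itga6 (0.90) and Pdlim4 (0.90). For Lef1 _at they were Pdlim4 (0.93), F2rl3 (0.88) and S1pr1 itself (0.88). For Satb1 they were Mars1 (0.87), the actin regulator Evl (0.85) and Pxk (0.84).

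Among themselves, Ccr7, Klf2, S1pr1 _f_at and Lef1 _at correlated pairwise at 0.62 to 0.88 in the same measure, and Satb1 with these 4 at -0.01 to 0.39. These values rest largely on the NKT and CD4T arrays. Over the other 10 arrays the same 6 pairs ranged from -0.42 to 0.53.

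Markers of other cells were read beside these results. In NKT cells 2 of 12 macrophage and monocyte markers were called higher, Lyz2 (2.08 ± 0.35) and Csf1r (0.60 ± 0.13), and the list summed to 584.4 to 713.4 in NKT and 434.3 to 609.3 in CD4T arrays. Of 9 B cell defining markers 0 were called there by limma (0 with the block), with sums of 961.9 to 1868 in NKT and 851.3 to 1547 in CD4T arrays. Of 9 T cell defining markers 0 were called by limma in NKT or CD8aaT cells, while the block called Zap70 higher and Cd247 and Cd5 lower in NKT cells, and Cd5, Thy1 and Cd2 lower in CD8aaT cells. Of the macrophage and monocyte markers the block called Lyz2 lower in CD8aaT cells (-0.705, blocked adjusted p = 0.049). The B cell markers summed to 385.6 to 964.9 in CD8aaT and 367.8 to 449.9 in CD8abT arrays, with 0 called. Blk among them ranged from 16.67 to 593.3 over the CD8aaT arrays. In the RTOC pair the double-positive thymocyte markers other than the gate gene Cd8b1 summed to 327.4 to 345.4 in CD8aaT and 392.4 to 601.7 in CD8abT arrays, without overlap, and of all 8 measured the 1 called was Cd8b1. In NKT cells the same list without Cd8b1 summed to 562.8 to 613.1, against 706.5 to 785.0 in CD4T arrays, also without overlap. That sum still holds Cd4, a gate gene of this pair, at geometric means of 172.9 in NKT and 268.9 in CD4T cells. Rag1, Rag2, Ptcra, Cd24a and Sox4 overlapped between these groups. Dntt of the list was called lower (-0.71 ± 0.17, adjusted p = 0.049), as was Cd4 with the block (-0.64, blocked adjusted p = 0.0095). The part of these markers in the differences of the members was not tested.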

How the data were processed

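RNA was extracted with TRIZOL after sorting, amplified and labelled with biotin, per the labels' protocols, and measured on 16 Affymetrix mouse arrays, 1 per sample. The authors deposited 1 intensity per probe set and array, on a linear scale and made with RMA per the submitters' processing notes. The sources used here give neither its version and settings nor the arrays it was run on together. Of 12488 probe sets 66 controls were left out of the tests. Genes were named from the platform annotation (10833 probe sets with 1 symbol, 396 with several, 1193 not listed), and Entrez numbers matched to RefSeq changed 0 symbols.

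Log2 values of the deposited intensities were fitted in R 4.3.3 by limma 3.58.1, using lmFit and a two-sided eBayes test. The model held 1 mean for each of 6 groups and used all 16 arrays. Each contrast was adjusted by the Benjamini-Hochberg method for 12422 tests. Dim probe sets were kept. The fit was tested on simulated data. Genes of the lists were read on their brightest probe set. Named were every member probe set, list genes called in at least 1 pair by limma without or with the block, and the 3 genes most like each member. The members, lists and tests were chosen with earlier results of these data known. Nothing says that the replicates, called biological, were separate animals or sorts. The p-values then reflect only the spread among these samples, which may be technical. The number of arrays limits the precision.

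Replicate numbers were taken to pair the T cell samples, since arrays of 1 number deviated together from their group means, with correlations of 0.65 to 0.76 in NKT and CD4T and of 0.60 to 0.66 in CD8aaT and CD8abT, above the minimum of 0.1. Across numbers, replicates 2 and 3 of NKT and CD4T had correlations of 0.57 and 0.68 as well. In B1 and B2 the value was 0.69, with too few numbers for the rule. The block held the replicate number in that pair too, so blocked B cell values rest on a pairing that was not established. Replicates 2 and 3 were closely alike within NKT and within CD4T (SD of their log2 difference 0.13 and 0.16, against 0.38 to 0.63 for pairs with replicate 1), and if they are not independent the p-values are too small. The alternatives were the block, only the arrays compared, other scalings, an offset of 32, a filter on the dimmest 25%, each array left out, replicate 1 left out, the beta-actin ratio or 18S signal as covariates, and another variance moderation.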

Additional observations from a re-analysis of the deposited data

Results flagged for a closer look

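For 2 probe sets the effect differed between pairs by a test of the difference itself. For S1pr1 _f_at the NKT minus CD4T difference lay -1.46 ± 0.18 from the CD8aaT minus CD8abT difference (adjusted p = 9e-04) and -1.46 ± 0.20 from the B1 minus B2 difference (adjusted p = 0.0012). It was called in all 26 alternatives for both, with adjusted p from 0.00041 to 0.015 and from 0.00027 to 0.014. On the S1pr1 _at set these were not called (0.01 ± 0.33 and -0.26 ± 0.37, adjusted p = 1 for both). On the S1pr1 _f_at set both RTOC groups were dim, at mean percentiles of 30.8 in CD8aaT and 26.5 in CD8abT cells. For Klf2 the NKT minus CD4T difference lay -1.79 ± 0.39 from the B1 minus B2 difference (adjusted p = 0.035), called in 17 of 26 alternatives with adjusted p from 0.002 to 0.26. Single arrays were not tested for standing apart, since every group holds 2 or 3.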

How the results depend on the processing

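The falls of Ccr7, Klf2 and S1pr1 _f_at in NKT cells were called in all 26 alternatives run, that of Lef1 _at in 16 and that of Satb1 in B1 cells in 17. With the offset of 32 the Ccr7 difference was -1.29 and that of S1pr1 _f_at -0.66, by construction, since an offset shrinks dim values. Leaving out each array in turn, members called numbered 3 to 4 in NKT, 0 in CD8aaT and 0 to 1 in B1 cells, and 1 to 2 between the NKT and B cell pairs, and all probe sets called numbered 134 to 242, 10 to 57 and 64 to 164. In B1 cells 0 members were called with median centring, with the offset, and when replicate 1 was dropped throughout. With the replicate block 3 members were called in CD8aaT cells, 3 between the NKT and RTOC pairs, 4 between the NKT and B cell pairs and 1 between the RTOC and B cell pairs. With replicate 1 dropped throughout, 2, 2 and 1 were called in CD8aaT cells, between the NKT and RTOC and between the RTOC and B cell pairs, and median centring left 1 between the NKT and B cell pairs. The block called 601 probe sets in NKT, 398 in CD8aaT and 353 in B1 cells, and dropping replicate 1 gave 356, 190 and 227. With only the arrays compared 2 were called in CD8aaT and 50 in B1 cells, and with the offset 9 and 214. In CD8aaT cells the beta-actin ratio left 11 and the 18S signal 48.

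Signs turned in uncalled differences near 0, and the cause was not tested. Leaving out 1 array, the B1 differences spanned -0.02 to 0.519 for Klf2, -0.354 to 0.09 for Lef1 _at and -0.121 to 0.06 for S1pr1 _at, the CD8aaT differences -0.188 to 0.002 for Lef1 _at, -0.501 to 0.073 for S1pr1 _at and -0.013 to 0.161 for S1pr1 _f_at, and the NKT difference of Satb1 -0.44 to 0.006. For S1pr1 _at in B1 cells median centring gave 0.02 and dropping replicate 1 gave 0.036, and for S1pr1 _f_at in CD8aaT cells dropping it gave -0.092. The filter on the dimmest 25% removed S1pr1 _at. RMA can compress differences of dim probe sets, which limits what can be read from them.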
